A study of Mus musculus with 2 samples.

Results

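The 9 transcription factor genes Trp63, Klf4, Grhl1, Grhl3, Zfp750, Ovol1, Prdm1, Maf and Cebpa were followed through the keratinocytes of mouse dorsal skin. They were chosen as a named list of regulators of epidermal differentiation, with earlier results of these data known. All 9 were found among the 31053 genes measured in each library. Single-cell RNA was compared between 1 library of wild-type (WT) mice and 1 library of mice labelled Chrna5-/-, which lack the alpha 5 subunit of the nicotinic acetylcholine receptor. Both groups were female mice on a C57BL/6 background, 6 to 8 weeks old at the start, whose shaved backs received vaseline, the base of a cream, and whose skin was collected on day 7. Collagenase released the cells, and those that excluded the dye SytoxBlue were sorted as live. An extraction note speaks of skin treated with imiquimod and of C57BL/6J mice, the breeding note of C57BL/6N mice, and the sample labels of vaseline; values are read here under the labels. The sources used here give neither the number of mice per library nor the deleted part of Chrna5.

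Keratinocytes divide in the basal layer of the epidermis, leave it, and pass through spinous and granular stages before they die as cornified cells. Trp63 encodes p63, the factor that maintains the basal state and the epithelial identity of the tissue. Zfp750 and Klf4 act in the programme that p63 starts and are needed for late differentiation and the skin barrier. Grhl1 and Grhl3 encode grainyhead-like factors that control desmosomal and cornified envelope genes, among them Dsg1a and Tgm1. Ovol1 restrains the proliferation of progenitors as they differentiate, and Prdm1 encodes Blimp1, a repressor found in granular cells, in sebaceous lineage cells and in the dermal papilla. Maf belongs to a pair of related factors that promote differentiation in human epidermis, and Cebpa encodes a factor that slows division in the suprabasal layers.

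The promoters of Prdm1 and Grhl3 are shown because these 2 members had the lowest knockout to WT ratios in the keratinocytes as a whole. They are the 250 bases before a RefSeq start site on GRCm38.p6, on the minus strand at chr10:44458749-44458998 for Prdm1 and at chr4:135573633-135573882 for Grhl3. Capitals mark matches, on either strand, to 3 of 5 motifs searched: the AP-1 motif TGANTCA, the KLF motif CCNCNCCC and the CCAAT box, which reads ATTGG on the other strand.
Prdm1: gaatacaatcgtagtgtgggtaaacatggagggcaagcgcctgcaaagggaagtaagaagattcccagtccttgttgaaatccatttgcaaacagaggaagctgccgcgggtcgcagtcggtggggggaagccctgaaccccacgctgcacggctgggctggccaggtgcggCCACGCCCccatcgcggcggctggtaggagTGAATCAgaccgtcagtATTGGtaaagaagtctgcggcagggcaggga
Grhl3: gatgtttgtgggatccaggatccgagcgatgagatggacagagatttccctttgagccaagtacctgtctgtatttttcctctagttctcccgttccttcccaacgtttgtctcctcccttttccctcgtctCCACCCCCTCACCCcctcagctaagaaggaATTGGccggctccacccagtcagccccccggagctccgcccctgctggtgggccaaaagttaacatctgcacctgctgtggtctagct
The Prdm1 window held a KLF match 78 bases, an AP-1 match 48 bases and a CCAAT match 31 bases before the start. The Grhl3 window held KLF matches 118 and 112 bases before the start, which overlap each other, and a CCAAT match at 88 bases. Neither window held the GRHL motif AACCNGTT or the interferon-stimulated response element (ISRE), and the Grhl3 window held no AP-1 match. Of 32851 promoters of the same length, 6.75% held the AP-1 motif, 45.9% the KLF motif, 33.8% the CCAAT box, 1.79% the GRHL motif and 2.98% the ISRE motif. A match describes letters only. Promoters were matched for 5 of the 9 members: Klf4, Grhl1, Grhl3, Prdm1 and Cebpa.

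In the GENCODE vM21 annotation of GRCm38 (mm10), Prdm1 (ENSMUSG00000038151) lies at chr10:44437177-44528501 and Grhl3 (ENSMUSG00000037188) at chr4:135541888-135573630, both on the minus strand. Also on the minus strand are Klf4 at chr4:55527143-55532466, Zfp750 at chr11:121510978-121519333, Ovol1 at chr19:5549136-5560646 and Maf at chr8:115682942-115707794. On the plus strand are Trp63 at chr16:25683763-25892102, Grhl1 at chr12:24572283-24617391 and Cebpa at chr7:35119293-35121928. The RefSeq start shown for Prdm1 therefore lies inside the longer GENCODE gene, and the 250 bases shown hold no annotated exon. Zfp750 overlaps Tbcd, Maf overlaps Gm15655 and Cebpa overlaps Gm45091, each on the opposite strand. The sources used here do not state whether counting used the strand, so these 3 counts may hold reads of the overlapping gene.

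The WT library held 139673385 UMIs (unique molecular identifiers, each counting 1 captured RNA molecule) in 10741 barcodes, and the knockout library 125458721 UMIs in 9696 barcodes, with 34 barcodes in both. After filters on depth, mitochondrial share and doublets, 9666 and 8841 cells were kept, at medians of 12538.5 and 12310 UMIs. Chrna5 itself gave 13 UMIs in 10160 filtered WT cells and 3 in 9308 filtered knockout cells, too few to check the labels, and a tag outside the deleted part would check nothing. Cells were clustered without the 9 genes among the variable genes. Of 22 clusters, 12 were keratinocyte-like by their markers, with 7623 WT and 7085 knockout cells: 3, 7 and 9 (basal-like), 2 and 6 (suprabasal-like, led by Krt1 and, in 6, Krt10), 1 (upper hair follicle-like), 4 and 11 (outer root sheath-like), 13 (hair matrix-like) and 8, 12 and 14 (cycling). Cluster 9 had no basal marker and 1 marker of Langerhans cells (H2-M2) among its top 10 genes, and cluster 8 had 2 outer root sheath markers and none of its own, so both are also given by number. Cluster 7 had no basal marker among its leading genes either and rests on marker levels. The basal-like clusters were filled unequally: cluster 3 held 659 WT and 1836 knockout cells, cluster 7 held 764 and 292, and cluster 9 held 1555 and 591. With 1 library per genotype there is no test: every difference is between these 2 libraries, and every interval is a 95% interval for counting error only.

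Levels are given as CPM, the gene's UMIs scaled to a common total of UMIs of the same cells, and they were read across clusters within each gene, not between genes. Trp63 was highest in outer root sheath-like cluster 4, at 442 CPM in WT and 384 CPM in knockout cells. Its lowest WT level was 123 CPM, in suprabasal-like cluster 6, and its lowest knockout level was 125 CPM, in upper hair follicle-like cluster 1. In both libraries the 3 lowest clusters for Trp63 were thus 2, 6 and 1, the suprabasal-like and upper follicle clusters. Clusters 1 and 6 did not differ beyond their counting intervals in either library.

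Klf4 followed another order and peaked in upper hair follicle-like cluster 1, at 2061 CPM in WT and 1927 in the knockout cells. Its lowest WT level was 571 CPM in hair matrix-like cluster 13 and its lowest knockout level 548 CPM in cycling cluster 12. Outer root sheath-like cluster 4 was next in the WT library, whereas clusters 6, 11, 2 and 8 stood above it in the knockout library. There the intervals of clusters 8 and 4 overlapped.

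Grhl1, Grhl3 and Cebpa shared the order of their top 3 clusters, 6, 1 and 2, in both libraries, and Zfp750 and Ovol1 had the same 3 clusters in the order 6, 2 and 1. Grhl3 ranged from 2.48 CPM in WT cluster 4 to 85.1 in WT cluster 6 and from 2.43 CPM in knockout cluster 9 to 56.7 in knockout cluster 6. Below the top 3, its levels lay under 11 CPM, and most neighbours in the order had overlapping intervals, 8 of 11 in WT and 9 of 11 in the knockout library. Grhl3 UMIs in T and innate lymphoid-like cells, which should lack the gene, came to 3.44 CPM in WT and 1.38 in knockout cells. These values rest on 4 and 2 UMIs (intervals 0.94 to 8.82 and 0.17 to 4.98). Melanocyte-like cells had 2.10 and 4.57 CPM and dermal papilla-like cells 0.27 and 1.89 CPM. The lowest keratinocyte levels are thus near background, which is itself loosely measured. Zfp750 spanned 37.2 to 453 CPM in WT and 22.3 to 428 in knockout clusters, Grhl1 19.6 to 175 and 17.3 to 163, Ovol1 15.8 to 436 and 16.96 to 572, and Cebpa 21.3 to 227 and 23.8 to 209. The suprabasal-like clusters and the upper follicle therefore held all of the top 3 places for 5 of the 9 members in each library.

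Prdm1 shared the peak in cluster 6 but not the rest of the order. In WT it stood at 117 CPM in cluster 6, at 59.4 in cluster 2 and at 33.7 in basal-like cluster 9, and its median over the 12 clusters was 17.8 CPM. Upper hair follicle-like cluster 1 came next, and clusters 9, 1, 4 and 7 each overlapped the next in their intervals. The lowest WT levels were 2.26 CPM in cluster 8 and 2.36 CPM in hair matrix-like cluster 13, close to the 3.16 CPM of melanocyte-like cells. Maf was the flattest, from 89.4 to 185 CPM over the WT clusters and from 99.7 to 225 over the knockout clusters, and 10 of 11 neighbouring WT clusters in its order overlapped.

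**Figure D1:**
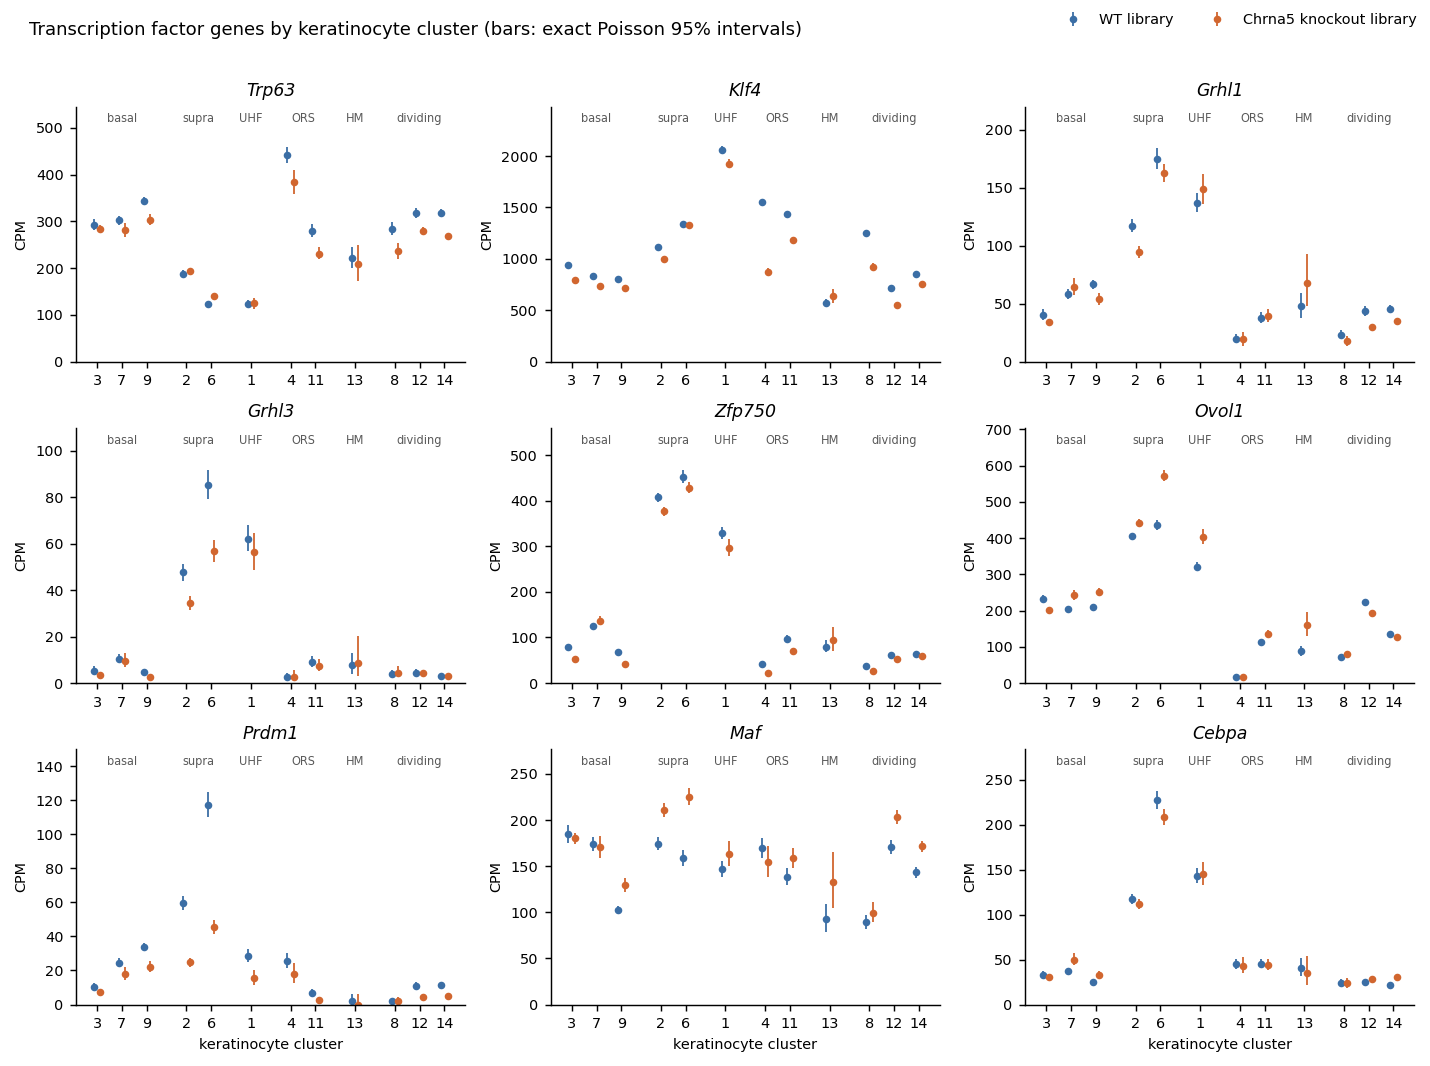
Level of each gene in CPM (linear axis from 0) in the 12 keratinocyte-like clusters, grouped as basal-like (basal), suprabasal-like (supra), upper hair follicle-like (UHF), outer root sheath-like (ORS), hair matrix-like (HM) and cycling (dividing). Blue points are the WT library and orange points the knockout library, with exact Poisson 95% intervals. Grhl1, Grhl3, Zfp750, Ovol1 and Cebpa are highest in clusters 6, 2 and 1, and Prdm1 in cluster 6 stands at 117 CPM in WT and 45.5 CPM in knockout cells.

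The comparison the series was built for sets the Chrna5 knockout skin against WT skin, here for each keratinocyte state. A gene is called higher or lower in the knockout library when its ratio of knockout to WT CPM is at least 1.5 or at most its inverse, among genes with at least 50 UMIs over both libraries. All 9 members were measured in every pool. In the 12 keratinocyte clusters together, 1 member was lower (Prdm1) and none was higher, where 7.75% of all 13264 measured genes were lower and 2.73% higher. In basal-like clusters 3, 7 and 9, 2 members were lower (Prdm1 and Grhl3) and none higher, against 6.35% of genes lower and 4.06% higher. In suprabasal-like clusters 2 and 6, 1 was lower (Prdm1) and none higher, against 4.45% and 3.47%. Prdm1 was also the only member past the fold in clusters 4 and 11 (outer root sheath-like) summed, where 6.24% of genes were lower and 3.03% higher, and in upper hair follicle-like cluster 1, where 5.35% were lower and 2.87% higher. Over the 9 members the median log2 ratio was -0.15 in the keratinocytes together, -0.15 in the basal-like, -0.08 in the suprabasal-like, -0.03 in the outer root sheath-like and 0.02 in the upper follicle-like pool, beside -0.03, -0.03, -0.0032, -0.01 and -0.02 over all measured genes. The member median thus lay below that of all genes except in the upper follicle-like pool, and these differences were not tested. Prdm1 passed the fold in every pool and Grhl3 in the basal-like pool alone.

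Prdm1 stood at 31.2 CPM in the WT keratinocytes and at 14.1 CPM in the knockout keratinocytes, a ratio of 0.454 (0.427 to 0.482). In the suprabasal-like pool it was 81.2 CPM in WT and 33.3 CPM in knockout cells, a ratio of 0.410 (0.378 to 0.445). The knockout level of suprabasal-like cells was thus close to that of WT basal-like cluster 9. In cluster 6, where Prdm1 peaked, the ratio was 0.388, and in the earlier cluster 2 it was 0.418. The upper hair follicle-like pool had 28.4 and 15.5 CPM (ratio 0.545, 0.397 to 0.737), from 220 and 54 UMIs. Outer root sheath-like cells had 15.2 and 7.01 CPM (0.460, 0.333 to 0.627), from 178 and 54 UMIs. That pool joined cluster 4, with 664 WT and 231 knockout cells, and cluster 11, with 504 and 498 cells and a lower Prdm1 level. With the 2 clusters weighted alike the log2 ratio was -0.66 in place of -1.12, still past the fold. Prdm1 was lower in the knockout library in each of the 11 clusters that held its UMIs in both libraries, with ratios from 0.374 to 0.910, and in 9 of the 11 the interval lay below 1. In cluster 4, at 25.5 and 17.9 CPM, it was within the fold, as in clusters 3 (0.739), 7 (0.728) and 8 (0.910). Hair matrix-like cluster 13 had 4 WT and 0 knockout UMIs, too few for a ratio.

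In the basal-like pool Prdm1 stood at 26.3 CPM in WT and 12.2 CPM in knockout cells, a ratio of 0.463 (0.412 to 0.519). Within its clusters the gap was smaller: 10.0 against 7.41 CPM in cluster 3, 24.4 against 17.7 in cluster 7 and 33.7 against 22.1 in cluster 9. Most WT basal-like cells lay in cluster 9, where Prdm1 was highest of the 3, and most knockout cells in cluster 3, where it was lowest. With the 3 clusters weighted alike the log2 ratio was -0.53 in place of -1.11 and no longer past the fold. Within the suprabasal-like pool, weighting the 2 clusters alike gave -1.33 beside -1.29. Finer suprabasal-like clusters, at Leiden resolution 2, were also filled unequally. The one with Prdm1 among its top 10 genes held 353 WT and 222 knockout cells. The others held 245 and 604, 155 and 379, and 198 and 134. Prdm1 within these finer clusters was not tested.

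More WT than knockout cells held a Prdm1 UMI. In the suprabasal-like pool 46.6% of WT and 25.1% of knockout cells did, at median depths of 16451 and 15515 UMIs. With each cell thinned to 2000 UMIs, which left out 47 WT and 89 knockout cells, the shares were 13.6% (11.8 to 15.6) and 5.36% (4.28 to 6.62). In melanocyte-like cells, taken as the background of free RNA, the unthinned shares were 3.78% and 3.03% at median depths of 6497 and 3012 UMIs, and the thinned shares 2.16% and 3.23%. In the upper hair follicle-like pool the thinned shares were 6.28% (4.27 to 8.84) and 3.77% (1.74 to 7.03), whose intervals overlap. There the mean over cells gave a log2 ratio of -0.34 in place of -0.87, not past the fold. Summed markers of other cell types moved too: over the keratinocytes, the 6 melanocyte markers came to 79.5 CPM in WT and 40.7 in knockout cells, the 9 T and innate lymphoid markers to 136 and 109, the 8 Langerhans cell markers to 275 and 245, and the 8 fibroblast markers to 21.1 and 10.5. All markers of these lists had UMIs in both libraries. Prdm1 itself was at 3.16 and 7.61 CPM in melanocyte-like cells, at 1.72 and 2.76 CPM in T and innate lymphoid-like cells and at 18.1 and 8.17 CPM in fibroblast-like cells, below its keratinocyte level in each library. In Langerhans-like cells Prdm1 stood above that level, at 83.6 CPM in WT and 38.8 CPM in knockout cells, from 37 and 7 UMIs. The 9 dermal papilla markers were at 7.30 CPM in WT and 11.8 CPM in knockout keratinocytes. The part of RNA from each of these cell types in the Prdm1 ratio was not tested.

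**Figure D2:**
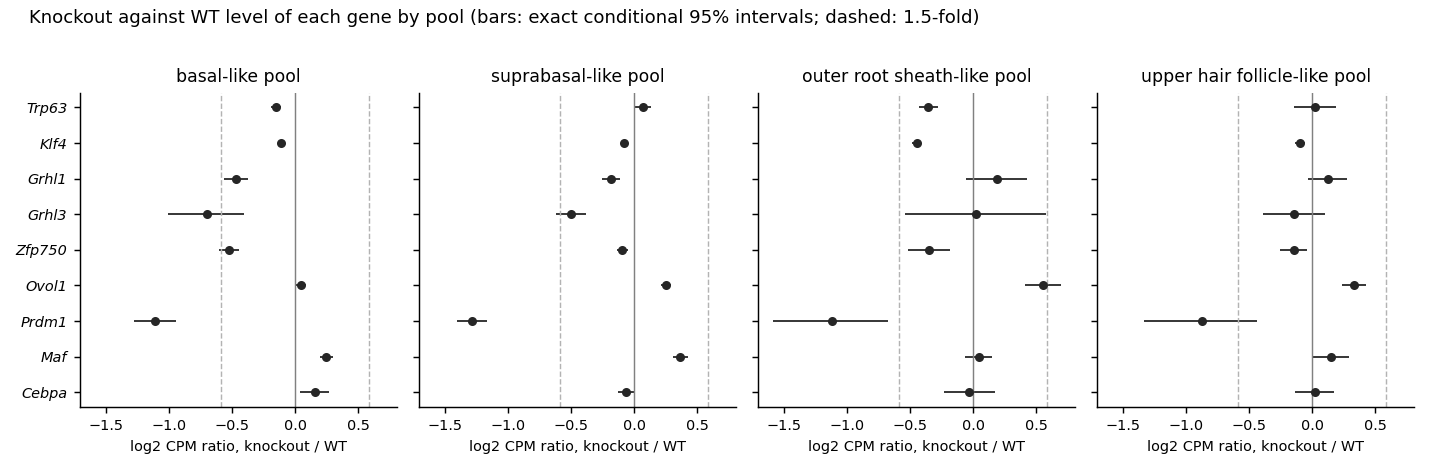
Log2 ratio of knockout to WT CPM for each gene (rows) in 4 keratinocyte pools (panels), with exact conditional 95% intervals for counting error; the solid line marks no difference and the dashed lines the 1.5-fold limits. Prdm1 lies left of the lower limit in every panel, and Grhl3 only in the basal-like pool.

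Of the grainyhead-like genes and Zfp750, which act in late differentiation, Grhl3 passed the fold in the basal-like pool. Grhl1 and Zfp750 passed it in no pool with the main processing. By cluster, Grhl3 was lower past the fold in clusters 6 and 9, Zfp750 in clusters 4 and 9, and Grhl1 in none. Grhl3 stood at 61.7 CPM in WT and 43.7 CPM in knockout suprabasal-like cells, a ratio of 0.707 (0.653 to 0.766) that is short of the fold. In cluster 6 alone it was 85.1 and 56.7 CPM, a ratio of 0.666 (0.596 to 0.743) that just passed the fold. With doublets kept the suprabasal-like log2 ratio was -0.62 in place of -0.50, and with finer clusters -0.64, both past the fold. Its basal-like ratio of 0.615 (0.498 to 0.756) came from 6.74 and 4.15 CPM, 272 and 142 UMIs, not far above the background in lymphoid cells. That call was kept under 6 of 10 alternatives. It was lost with the clusters weighted alike (log2 -0.40 in place of -0.70), with the mean over cells (-0.47), with the members among the clustering genes (-0.47) and at Leiden resolution 2 (-0.51), and after thinning the value was -1.16. Among upper hair follicle-like cells Grhl3 was 62.2 and 56.3 CPM with an interval from 0.763 to 1.07, so no difference was detectable at this depth.

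Zfp750 differed by state: the ratio was 0.696 (0.659 to 0.735) in the basal-like pool, where levels were 89.1 and 62.0 CPM, but 0.938 (0.912 to 0.965) in the suprabasal-like pool, at 424 and 398 CPM. Both are short of the fold, and the difference between the states was not tested. By cluster, Zfp750 was at 69.1 against 41.2 CPM in cluster 9 and 79.7 against 53.4 CPM in cluster 3, while cluster 7 had 126 in WT and 137 in knockout cells. Outer root sheath-like cluster 4 had 40.7 and 22.3 CPM, a ratio of 0.548 (0.394 to 0.748). The interval of cluster 7, 0.991 to 1.19, held 1, unlike those of clusters 3 and 9. Grhl1 had a similar pattern, with 58.9 and 42.6 CPM in the basal-like pool (0.724, 0.678 to 0.773) and 139 and 123 CPM in the suprabasal-like pool (0.882, 0.839 to 0.928). In cluster 7 the Grhl1 interval, 0.969 to 1.27, held 1. With the 3 basal-like clusters weighted alike the log2 ratio was -0.11 in place of -0.47 for Grhl1, beside -0.18 in the suprabasal-like pool, and -0.25 in place of -0.52 for Zfp750. Of the genes named above as controlled by Grhl1 and Grhl3, the desmosomal cadherin gene Dsg1a was at 683 and 740 CPM in suprabasal-like cells, a ratio of 1.08. The cross-linking enzyme gene Tgm1 was at 15.8 and 11.4 CPM there, a ratio of 0.721.

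Ovol1 and Maf ran the other way. Ovol1 was at 416 CPM in WT and 496 CPM in knockout suprabasal-like cells, a ratio of 1.19 (1.16 to 1.22), and in cluster 6 at 436 and 572 CPM. Its highest pool ratio was 1.47 (1.33 to 1.62) in the outer root sheath-like pool, from 69.5 and 102 CPM, just short of the fold. That pool joined clusters with different Ovol1 levels, 15.8 and 16.96 CPM in cluster 4 and 113 and 137 CPM in cluster 11, and cluster 4 held 664 WT but 231 knockout cells. Ovol1 intervals lay above 1 in 7 of 12 clusters and below 1 in 3 (clusters 3, 12 and 14), so its direction was not shared by all states. In hair matrix-like cluster 13 Ovol1 was higher past the fold, at 87.7 and 160 CPM (ratio 1.83, 1.39 to 2.39), from 149 and 92 UMIs. Maf was at 168 and 217 CPM in the suprabasal-like pool, a ratio of 1.29 (1.23 to 1.34), and at 159 and 225 CPM in cluster 6. Its interval lay above 1 in 8 of 12 clusters and below 1 in none. Clusters 3, 4, 7 and 8 had Maf intervals that held 1.

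Trp63, Klf4 and Cebpa stayed within the fold in every pool. Trp63 was at 321 and 288 CPM in the basal-like pool (0.900, 0.876 to 0.924), at 163 and 171 CPM in the suprabasal-like pool (1.05, 1.00 to 1.10) and at 353 and 276 CPM in the outer root sheath-like pool (0.781, 0.741 to 0.823). The last ratio lay below those of its clusters 4 (0.869) and 11 (0.825), which were filled unequally. With these 2 clusters weighted alike the Trp63 log2 ratio was -0.23 in place of -0.36. Klf4 was at 834 and 771 CPM in the basal-like and at 1199 and 1132 CPM in the suprabasal-like pool. In cluster 4 it was at 1552 CPM in WT and 873 CPM in knockout cells, a ratio of 0.563 (0.536 to 0.591), the only one of the 12 keratinocyte clusters in which Klf4 passed the fold. Cebpa was at 159 and 152 CPM in suprabasal-like cells, a ratio of 0.956 (0.913 to 1.00), and at 30.6 and 34.1 CPM in the basal-like pool, a ratio of 1.11 (1.03 to 1.21).

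The cells of clusters 2, 3, 6, 7 and 9 were also ordered by their own keratins, as the share of Krt1 and Krt10 UMIs among those of Krt1, Krt10, Krt5 and Krt14. This sets WT and knockout cells side by side within a range of the balance of spinous and basal keratins. The match is not complete, since Krt5 was at 1321 CPM in WT and 862 CPM in knockout cells of the highest bin, and the clusters are still filled unequally within a bin. From the lowest bin to the highest, the knockout to WT ratio of Krt10 was 1.07, 0.792, 0.850 and 0.971. The bins are ranges, not cell types: of 8635 cells, 422 lay near the limit of 5%, 264 near 20% and 409 near 50%. The number of WT and knockout cells was 2686 and 2457 under 5%, 542 and 571 from 5 to 20%, 339 and 384 from 20 to 50%, and 750 and 905 at 50% or more.

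The libraries stood apart in Prdm1 in every bin. The WT level was 24.9 CPM under 5%, 42.3 from 5 to 20%, 59.8 from 20 to 50% and 100.1 at 50% or more. The knockout level was 11.2, 19.5, 20.5 and 42.7 CPM in the same bins, of which the middle pair had overlapping intervals. The Prdm1 ratios were 0.450, 0.462, 0.343 and 0.427, and no interval of a bin overlapped between the libraries. The lowest bin still mixes clusters 3, 7 and 9, within which the gap was smaller. The knockout cells of the highest bin thus held about as much Prdm1 as the WT cells from 5 to 20%.

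Grhl3 went from 5.53 to 76.1 CPM across the bins in WT and from 3.50 to 52.8 CPM in knockout cells, with ratios of 0.633, 0.720, 0.752 and 0.694. Zfp750 had a ratio of 0.643 under 5% but of 0.854, 0.954 and 0.958 in the other bins. Its gap was thus widest in the lowest bin, which still mixes basal-like clusters 3, 7 and 9. The Zfp750 ratio was 0.670 in cluster 3 and 0.597 in cluster 9 but 1.09 in cluster 7. With these clusters weighted alike the basal-like log2 ratio was -0.25 in place of -0.52. The part of this mixing in the ratio of the lowest bin was not tested. Ovol1 had its widest gap in the highest bin instead, with ratios of 1.00, 1.12, 1.15 and 1.24. Its WT level went from 205 to 450 CPM and its knockout level from 206 to 558 CPM. Maf ratios were 1.20, 1.14, 1.29 and 1.31, and its WT level was 168 CPM in the highest bin against 136 in the lowest. Trp63 went down from 321 to 145 CPM in WT and from 288 to 154 CPM in knockout cells, and Cebpa went up from 28.6 to 197 and from 31.7 to 191 CPM. For these 2 genes the libraries tracked each other closely, with ratios from 0.896 to 1.07 for Trp63 and from 0.933 to 1.11 for Cebpa.

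**Figure D3:**
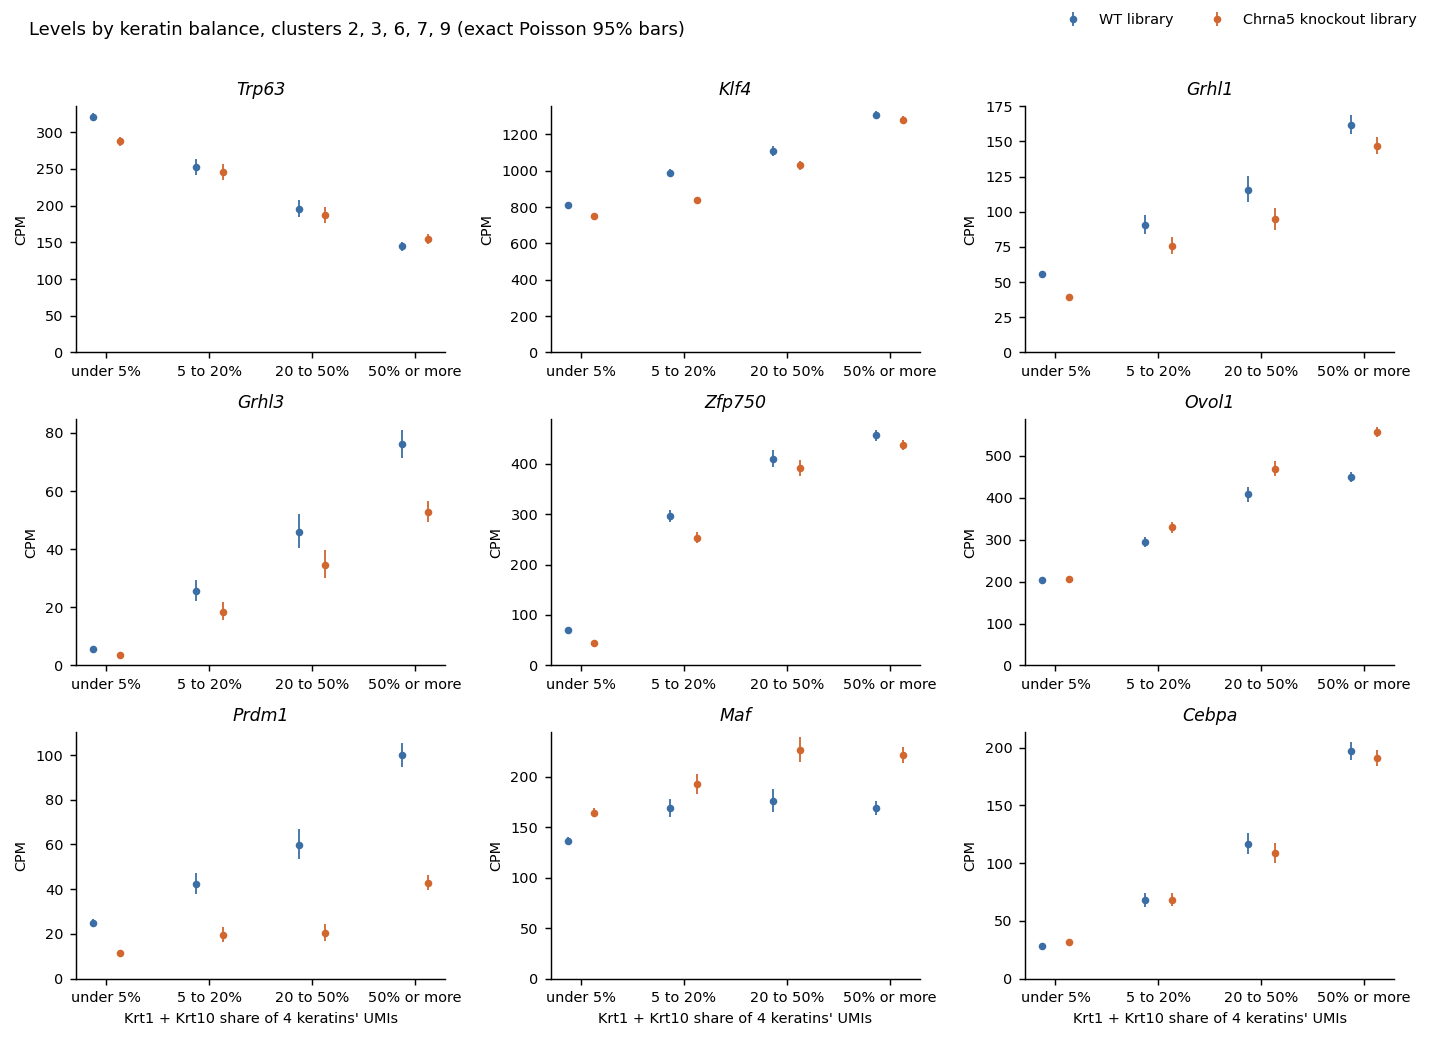
Level in CPM (linear axis from 0) against the share of Krt1 and Krt10 among the UMIs of 4 keratins, in cells of clusters 2, 3, 6, 7 and 9; blue points are WT and orange points knockout, with exact Poisson 95% intervals. Prdm1 is lower in the knockout library in all 4 bins, Ovol1 separates upward with the share, and Trp63 is the one gene that declines.

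Across the 24 points given by 12 clusters in 2 libraries, Grhl3 and Zfp750 had a Pearson correlation of log2(CPM + 1) of 0.95, Grhl3 and Cebpa of 0.94, and Grhl1 and Zfp750 of 0.93. Trp63 was opposed to Grhl3, at -0.91. Prdm1 was less close to the others, at 0.63 with Cebpa at most. These are descriptions over points that share 2 libraries, with no test. Among 7508 other genes, the closest to Prdm1 were Tmcc3 (0.91), Degs1 (0.91) and Zfp772 (0.90), and the closest to Grhl3 were Sppl3 (0.95), Mxd1 (0.94) and Erlin1 (0.94). Zfp750 was closest to Fam57a (0.93), Esrp2 (0.92) and Rab25 (0.92), Grhl1 to Sult2b1 (0.94), Ap1b1 (0.92) and Fam57a (0.92), and Cebpa to Esrp2 (0.95), Ly6g6e (0.95) and Sppl3 (0.93). Trp63 was closest to Sdcbp (0.97), Col18a1 (0.96) and Slc25a24 (0.96), Klf4 to Fam84a (0.92), Cat (0.91) and Defb6 (0.91), and Ovol1 to Uck2 (0.93), Ybx3 (0.93) and Rplp0 (0.92). Maf had no close partner, its nearest being Adtrp at 0.73, Lancl1 at 0.71 and Rxra at 0.70.

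Outside the keratinocytes, Prdm1 was highest in the dermal papilla and sheath-like cells of cluster 0, the mesenchymal cells at the base of the follicle. There it stood at 184 CPM in WT and 264 CPM in knockout cells, a ratio of 1.43 (1.29 to 1.59), the opposite direction to the keratinocytes. At Leiden resolution 2, dermal papilla and sheath-like cells fell into a cluster of 408 WT and 258 knockout cells and another of 178 and 249. Prdm1 within these 2 clusters was not tested. The share of dermal papilla and sheath-like cells with a Prdm1 UMI was 54.8% and 57.2%, at median depths of 6744 and 5352 UMIs. After thinning it was 30.3% (26.3 to 34.5) and 35.4% (30.8 to 40.2), whose intervals overlap. Cebpa was also higher in these cells than in keratinocytes as a whole, at 341 and 270 CPM against 62.8 and 64.3. Maf was highest in unnamed cluster 17, led by Icos and Cd28, at 386 and 265 CPM. Klf4 stood at 1728 and 1088 CPM in fibroblast-like cells and at 846 and 1232 CPM in T and innate lymphoid-like cells. Grhl1, Grhl3, Zfp750 and Ovol1 were at 18.1 CPM or less in the dermal papilla-like cells of both libraries.

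**Figure D4:**
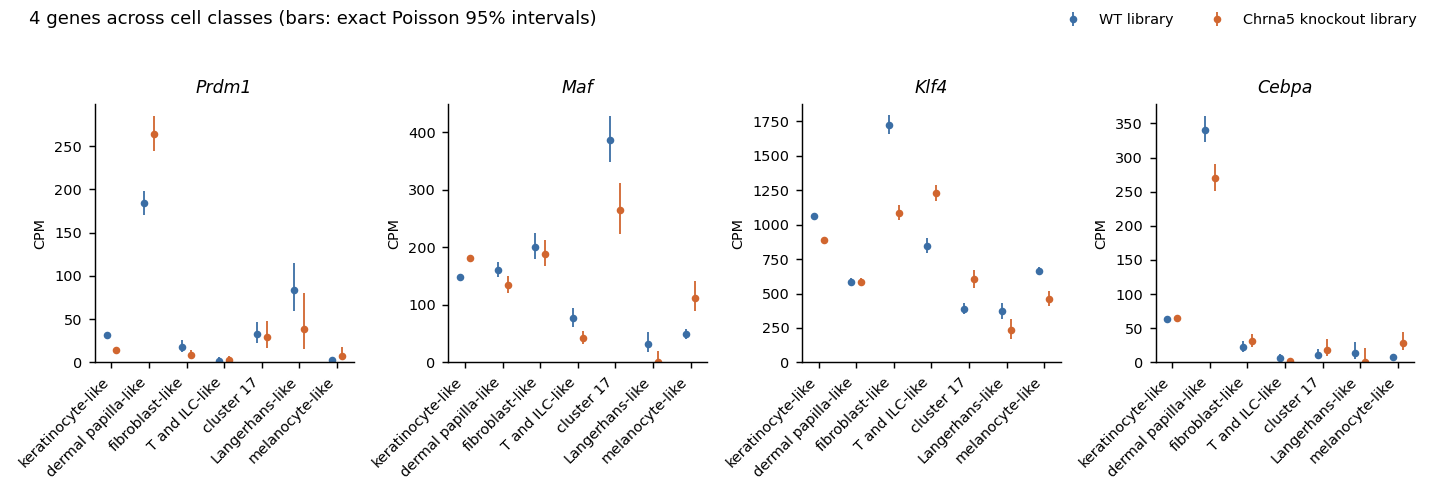
Level of Prdm1, Maf, Klf4 and Cebpa in CPM (linear axis from 0) in the keratinocyte-like cells together and in 6 other cell groups; blue points are WT and orange points knockout, with exact Poisson 95% intervals. Prdm1 is lower in knockout keratinocytes (14.1 against 31.2 CPM) and higher in knockout dermal papilla-like cells (264 against 184 CPM).

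A list of 35 other epidermal transcription factors and chromatin regulators served as the surroundings of the 9. In the keratinocytes together, 1 was higher, 2 were lower and 32 were within the fold, at a median log2 ratio of -0.08. There 2.73% of all measured genes were higher and 7.75% lower, at a median of -0.03. Ovol2, the relative of Ovol1, was higher at 7.10 and 12.3 CPM (ratio 1.73), and Etv4, an ETS factor, was lower at 16.4 and 6.93 CPM (0.422), as was Dlx3, a homeobox gene of hair and granular cells, at 5.31 and 2.72 CPM (0.511). In the suprabasal-like pool 2 were higher, 3 lower and 29 within the fold, beside 3.47% of all measured genes higher and 4.45% lower. Ovol2 was at 2.64 and 6.14 CPM, and Hes1, a Notch target that holds spinous cells back from late differentiation, at 22.7 and 44.9 CPM (1.98). Lower were the ETS family genes Etv4 (0.244), Ets1 (0.607) and Ehf (0.627). The basal-like pool had 1 higher, 1 lower and 33 within the fold, the outer root sheath-like pool 3, 1 and 30, and the upper hair follicle-like pool 1, 2 and 29. Over all measured genes, these pools had 4.06%, 3.03% and 2.87% higher and 6.35%, 6.24% and 5.35% lower.

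Of 37 differentiation genes, 34 were measured in the suprabasal-like pool, where 2 were higher, 9 lower and 23 within the fold, at a median log2 ratio of -0.23. Over all measured genes there, 3.47% were higher and 4.45% lower, at a median of -0.0032. The lowest ratios were those of the cornified envelope genes Flg, at 46.1 and 3.79 CPM (0.0822), Lor, at 18.5 and 5.54 CPM (0.300), and Cdsn, at 2.42 and 0.837 CPM (0.347). Krt2, a late keratin, was higher at 0.966 and 3.63 CPM (3.76), from 22 and 91 UMIs. The outer root sheath-like pool went the other way, with 7 higher, 3 lower and 18 within the fold and a median of 0.30, led by Spink5 at 6.00 and 18.4 CPM (3.07). There 3.03% of all measured genes were higher and 6.24% lower. Its clusters 4 (664 WT and 231 knockout cells) and 11 (504 and 498) were filled unequally, and the part of this in the counts was not tested. The counts were 3 higher, 7 lower and 25 within the fold in the keratinocytes together, 2, 6 and 21 in the basal-like pool, and 2, 0 and 28 in the upper hair follicle-like pool. Over all measured genes, these had 2.73%, 4.06% and 2.87% higher and 7.75%, 6.35% and 5.35% lower. Of 25 basal genes, none passed the fold in the keratinocytes together. In the basal-like pool Krt15 was higher, at 2348 and 3811 CPM (1.62), as was Dst, at 515 and 835 CPM (1.62), none was lower and 23 were within the fold. Suprabasal-like cells had 2 of the basal genes higher, 1 lower and 20 within the fold, outer root sheath-like cells 1, 1 and 22, and upper hair follicle-like cells 0, 3 and 17. The shares over all measured genes given above for each pool apply to the basal genes too.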

How the data were processed

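The deposited matrices held whole-number UMI counts per gene and barcode with no normalization, per the file headers. Cell Ranger 3.0.2, Seurat 3.0 and mm10 are named without a role in the submitters' processing notes, and the file header gives software version 3.1.0. Barcodes under 500 UMIs, under 300 genes or over 20% mitochondrial UMIs were dropped. Scrublet's own threshold marked 0.0197% of WT cells and had not worked, so a common score of 0.25, set after seeing the data, removed 494 WT and 467 knockout cells. Both libraries were clustered together in scanpy 1.11.5 (2000 variable genes without the 9 members, 30 components, 15 neighbours, Leiden at resolution 1). Clusters were named from marker lists by a rule set after seeing the data, with at least 3 markers found in 25% of cells, and keratinocyte subclasses by markers among 25 leading genes. Clusters 15, 17 and 20 stayed unnamed. The counts were summed per pool and library and scaled to CPM. Ratios are knockout over WT with exact conditional binomial 95% intervals, levels have exact Poisson intervals and shares Clopper-Pearson ones, from scipy 1.17.1. The arithmetic was tested on simulated data. A gene was compared with at least 50 UMIs over both libraries. Beside the members, the named genes are the 3 highest and 3 lowest of each list in a pool, shown in part, and the 3 genes closest to each member with a mean of at least 10 CPM; Tgm1, Dsg1a and the lists' other named genes were chosen with their values seen. The members and the lists were chosen with earlier results of these data known, and 1 gene of the lists is not reported here. Promoters come from RefSeq on GRCm38.p6.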

Additional observations from a re-analysis of the deposited data

Results flagged for a closer look

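In 4 other named cell classes a member with at least 50 UMIs stood on the other side of no difference from its keratinocyte ratio, with both intervals clear of 1 and at least 1 of the ratios past the fold of 1.5; none of these differences was tested, since each class has 1 library per genotype. Prdm1 differed by 1.66 on the log2 scale between dermal papilla and sheath-like cells (0.52) and the keratinocytes together (-1.14). Maf differed by -1.16 between T and innate lymphoid-like cells (-0.87, from 76.6 and 42.0 CPM) and keratinocytes (0.30). Trp63 differed by 1.15 in fibroblast-like cells, where it was at 20.1 and 40.2 CPM, from 31 and 59 UMIs. Klf4 in T and innate lymphoid-like cells (ratio 1.46) and Maf in dermal papilla-like cells (0.836) also stood opposite to keratinocytes, with no ratio past the fold. In melanocyte-like cells, of which the WT library held 185 and the knockout library 99, the difference was 1.1 for Trp63 (34.0 and 65.4 CPM), 2.2 for Grhl1 (9.47 and 36.5 CPM) and 1.29 for Zfp750 (22.1 and 48.7 CPM). These 3 genes each had under 100 UMIs in either library there, and their levels were lower than in keratinocytes. The melanocyte-like cells of the knockout library had a median of 3012 UMIs against 6497 in WT; the part of depth and of free keratinocyte RNA was not tested.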

How the results depend on the processing

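In the keratinocytes together Prdm1 was the 1 member past the fold under all 12 alternatives. The count of 2 in the basal-like pool became 1 with the mean over cells, with the members among the clustering genes, at Leiden resolution 2 and at a fold of 2, 0 with clusters weighted alike, and 3 after thinning, where Grhl1 joined at a log2 ratio of -0.65. The count of 1 in the suprabasal-like pool became 2 with doublets kept and at Leiden resolution 2, where Grhl3 joined. In the outer root sheath-like pool it became 2 with doublets kept, after thinning, with the mean over cells, with free RNA subtracted and with the members among the clustering genes. The member that joined was Zfp750, lower, with doublets kept and with the members among the clustering genes (log2 ratio -0.72). In the other cases it was Ovol1, higher (0.88 after thinning). In the upper hair follicle-like pool the count of 1 became 0 with the mean over cells, at Leiden resolution 2 and at a fold of 2. Weighting clusters alike was not run there, since the pool is 1 cluster. No called ratio changed sign. TMM and median-of-ratios factors moved the pools by at most 0.03 on the log2 scale. The causes of these moves were not tested. No paired analysis was possible because each group has 1 library. Depth limits Prdm1 and Grhl3 most, whose pools outside the interfollicular clusters rest on 47 to 481 UMIs.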
